A study of Ovis aries with 12 samples.

Results

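The genes described here build or remodel the connective tissue of fetal muscle: VIM, MMP2, TNMD and the collagens. They were chosen by name, as probes called VIM, MMP2, TNMD or a numbered collagen whose flag for well above background was set on 6 or more of 12 arrays. The rule found 15 probes of 8 genes, and all 15 passed the filter, out of 10734 tested probes. Of the 15, 11 carry the gene symbol in the array's name column. The other 4 probes, of TNMD, COL1A2 and COL3A1, carry a number there that the sheep gene table pairs with the symbol. The pair of probes called COL6A1 by the array is described on the same array as the alpha 3 chain of type VI collagen, so it is named here by its label only. A further 9 probes are collagens by the array's description alone. They lie outside the rule and are given for comparison.

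The 12 arrays hold RNA of biceps femoris, a muscle of the thigh, from sheep fetuses carried as singletons to near term. In the cortisol group, 6 arrays come from fetuses whose ewes received 1 mg/kg/day of cortisol (Solu-Cortef) from day 115 of pregnancy. In the control group, 6 arrays come from fetuses whose ewes received vehicle over the same days. Tissue was taken at day 139 to 144, soon after labour began, from 7 ewes per arm per the labels, of which 6 per arm are analysed here. The hormone went to the ewe, so the fetal dose is not given. The sources used here give neither breed nor fetal sex. The labels' treatment text speaks of left ventricle, whereas title and tissue fields name biceps femoris. The muscle markers on the array (MYOD1, MYOG and MB, 3 of 9 listed) were well above background on all 12 arrays. The cardiac markers listed are not on the array by name, so the heart was not checked. All signals are log2 units relative to each array's 75th percentile. They describe 1 probe across fetuses and do not rank genes against each other.

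Skeletal muscle fibres sit in a scaffold of collagen made by fibroblasts. Types I and III form the fibrils, types V and XII are found on or in those fibrils, type VI lies around the fibres, and type IV forms the basement membrane. Most collagen chains wind in threes, and a glycine must recur after each pair of other residues for the helix to close. Type I is built from alpha 1 and alpha 2 chains, encoded by COL1A1 and COL1A2, and the common type IV network from chains encoded by COL4A1 and COL4A2. TNMD encodes tenomodulin, a membrane protein of tendon cells, and COL2A1 encodes the main collagen of cartilage. VIM encodes vimentin, the intermediate filament of fibroblasts and other mesenchymal cells, and MMP2 encodes a gelatinase that cuts denatured collagen and type IV collagen. In whole muscle, fewer cells of a type and less RNA per cell cannot be told apart.

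The probes are 60 bases long, and their letters show which ones measure the same stretch and which ones read a triple helix. The VIM pair is almost the same sequence. The capitals mark the 56 bases that both probes share, so these are not independent measurements.
VIM probe 1: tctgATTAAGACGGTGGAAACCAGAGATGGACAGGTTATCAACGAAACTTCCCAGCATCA
VIM probe 2: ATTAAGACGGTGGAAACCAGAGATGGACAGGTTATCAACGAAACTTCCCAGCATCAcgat

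The TNMD probes share no stretch and lie next to each other on 1 sheep mRNA record (a partial coding sequence), starting at its bases 432 and 495.
TNMD probe 1: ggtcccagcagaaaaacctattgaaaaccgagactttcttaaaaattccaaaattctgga
TNMD probe 2: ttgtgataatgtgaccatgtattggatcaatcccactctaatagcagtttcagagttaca

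In 7 of 17 collagen probes, one reading frame without a stop codon has this glycine repeat from end to end. Such a frame occurs in 24 of the 15008 probes on the array (0.16%). The capitals mark those glycine codons in the chains whose signals are compared below. COL1A2 probe 1 is a member by the rule, and the others are named by description.
COL1A1 probe 1: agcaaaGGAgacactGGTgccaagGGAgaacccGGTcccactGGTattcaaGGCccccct
COL1A2 probe 1: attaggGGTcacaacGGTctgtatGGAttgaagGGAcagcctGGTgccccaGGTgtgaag
COL4A1 probe 1: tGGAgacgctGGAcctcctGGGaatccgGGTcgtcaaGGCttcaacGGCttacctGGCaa
COL4A2 probe 1: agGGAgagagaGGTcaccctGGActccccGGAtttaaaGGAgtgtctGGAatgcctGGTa

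Cortisol and control arrays did not separate at the adjusted threshold for any of these genes. In limma, 0 of 15 member probes passed an adjusted p of 0.05, as did 0 of all 10734 tested probes (0.0%), and the members' smallest adjusted p was 0.757. At an unadjusted p under 0.05 the members again gave 0 of 15, against 6.82% of all tested probes. The control and cortisol ranges overlapped for all 15 probes. They did not overlap in 0.41% of all tested probes. The cortisol mean was higher in 10 member probes and lower in 5, against 46.0% higher among all probes tested. Under normexp background correction 8 members were higher, beside 3667 higher and 7067 lower of all tested probes, where the main setting gave 4933 and 5801. In the main setting the count of 10 drops to 5 without control array 1 and to 6 without cortisol array 4, and it comes to 4 of 8 with 1 probe per gene. The median log2 fold change was 0.03 over the members and -0.02 over all tested probes. The arrays cannot show that these genes did not respond, and the intervals below give what each probe leaves possible.

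**Figure D1:**
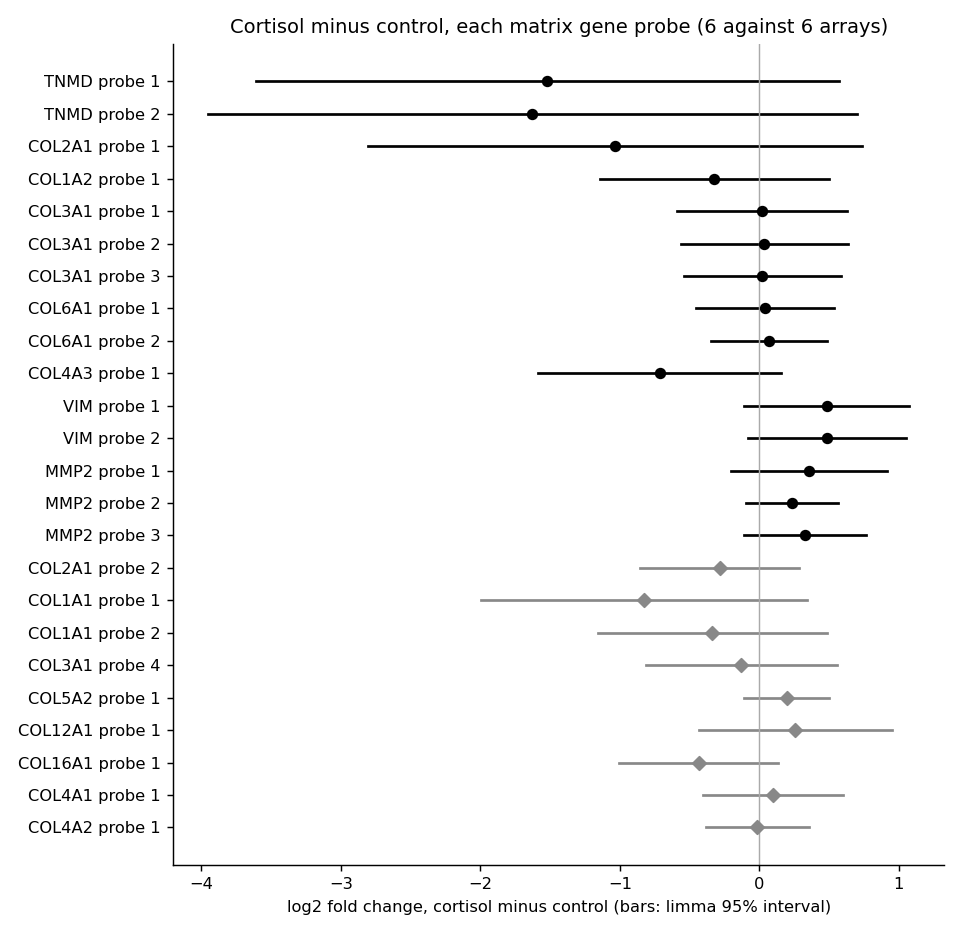
Log2 fold change (cortisol minus control) of each probe with its limma 95% interval, 6 against 6 arrays. Black circles are the 15 probes of the rule and grey diamonds the 9 collagens named by description. Every interval crosses 0, and those of TNMD and COL2A1 probe 1 are the widest.

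The tendon gene TNMD was spread widely between fetuses. On TNMD probe 2 the control arrays had a lowest signal of -6.78, a median of -1.19 and a highest of -0.04. The cortisol arrays had a lowest of -5.23, a median of -3.99 and a highest of -0.92. Of the controls, 5 lay between -1.93 and -0.04, while control array 5 lay far below them, lower than every cortisol array. Control array 5 also had the lowest 75th percentile of signal of all arrays, at 187 intensity units against 447 on the brightest. Over the 12 arrays the log2 of this percentile had an r of 0.15 with TNMD probe 1 and 0.16 with TNMD probe 2. Its part in the TNMD value of control array 5 was not tested. TNMD probe 2 was not well above background on control array 5 or on cortisol array 6, so both are dim readings rather than measured levels. TNMD probe 1 was below that mark on the same arrays and on cortisol array 3.

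The TNMD mean was lower in the cortisol group on both probes without passing the test. TNMD probe 2 averaged -1.89 ± 2.52 (SD, n = 6) in controls and -3.52 ± 1.75 (SD, n = 6) after cortisol. The log2 fold change was -1.63 (95% interval -3.95 to 0.70, limma adjusted p = 0.776, unadjusted p = 0.155), with 1 of 6 cortisol arrays above the control median. TNMD probe 1 gave -1.52 (95% interval -3.61 to 0.57, limma adjusted p = 0.772). The size depended on 1 fetus. Without control array 5, TNMD probe 2 gave -2.60 and probe 1 gave -2.36, at a limma adjusted p of 0.853 for both. Under normexp background correction the differences were smaller, at -1.04 and -0.74, with limma unadjusted p of 0.0174 and 0.0241 and an adjusted p of 0.741 for both. By set of slide and row, TNMD probe 2 gave -2.12 on slide 1, and -2.69 and -0.07 in the rows of slide 2. The set at -0.07 holds control array 5, and in it TNMD probe 1 was higher after cortisol, at 0.10. Position on the slides was not tested apart from that array.

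Both TNMD probes showed this spread. The TNMD probes followed each other over the 12 arrays with a Pearson r of 0.98 and a Spearman rho of 0.97, although they share no bases. The SD within groups was 2.17 log2 units for TNMD probe 2, at the 99.8th percentile of tested probes, where the median probe had 0.36. This SD includes the dim readings, which have no measured level. Dim probes vary more, so the same SD was also ranked among the 1481 tested probes that missed the background mark on at least 1 array. There it stood at the 98.6th percentile. Of the other genes that define tendon, SCX and MKX are not on the array by name.

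**Figure D2:**
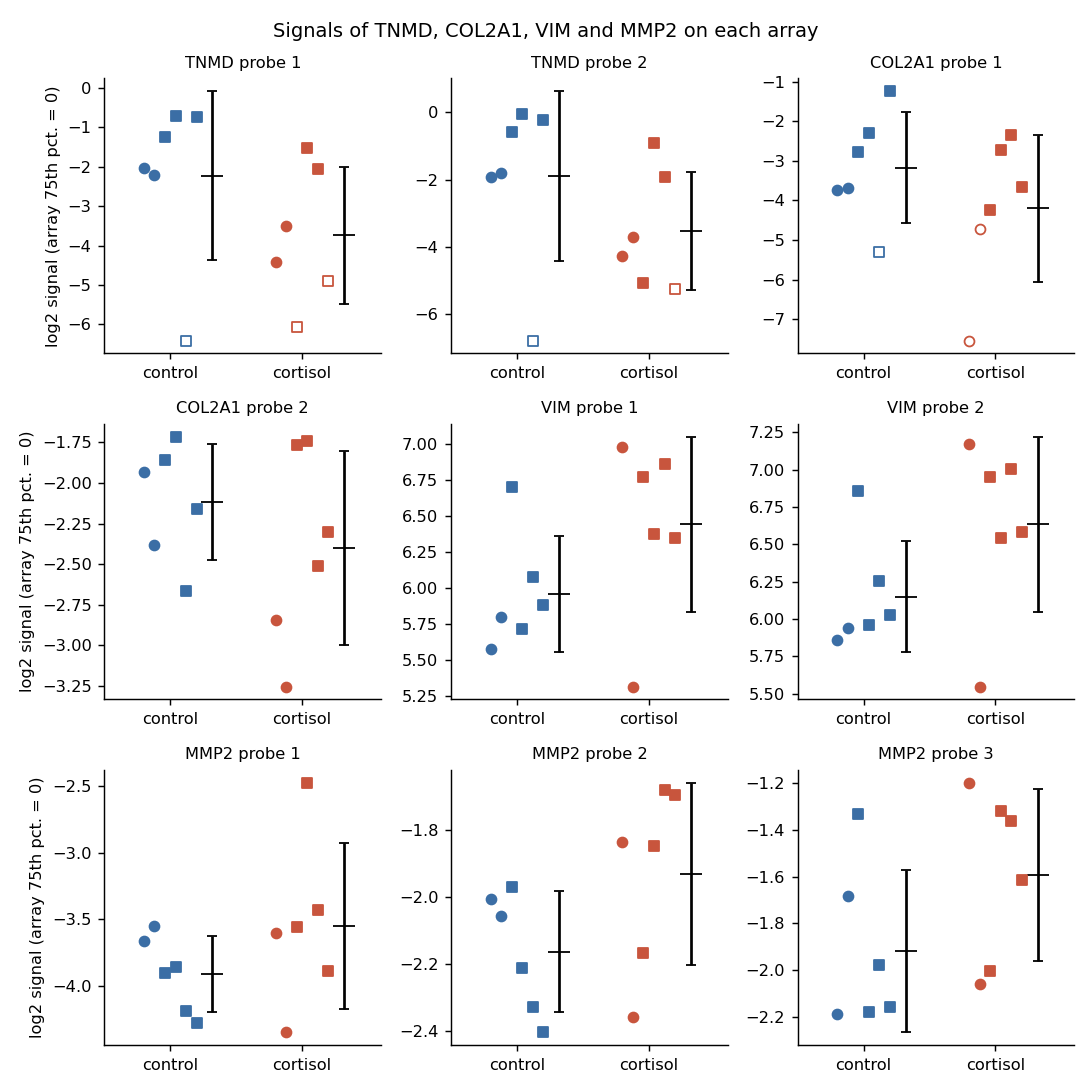
Log2 signal of TNMD, COL2A1, VIM and MMP2 probes on each array, with mean and SD per group beside the points. Circles are slide 1, squares slide 2, and open symbols are arrays where the probe was not well above background. Control array 5 is the isolated low point of both TNMD probes, and cortisol array 2 is the low cortisol point of VIM.

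**Figure D3:**
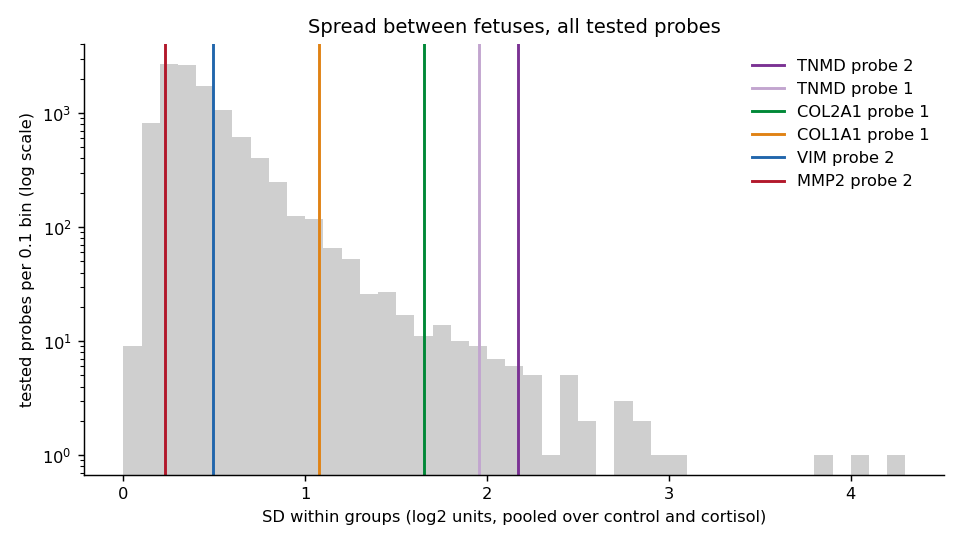
Number of tested probes (log scale) by their SD within groups, in bins of 0.1 log2 units, with coloured lines at 6 probes. TNMD probe 2 at 2.17 and COL2A1 probe 1 at 1.65 lie in the far tail, while MMP2 probe 2 at 0.23 lies below the median probe.

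The cartilage collagen COL2A1 was read by 2 probes, of which one varied far more than the other. On COL2A1 probe 1, which carries the gene symbol and comes from an expressed sequence tag, controls had a lowest signal of -5.30, a median of -3.23 and a highest of -1.23. The cortisol arrays had a lowest of -7.55, a median of -3.95 and a highest of -2.34. The log2 fold change was -1.03 (95% interval -2.80 to 0.74, limma adjusted p = 0.814), and without cortisol array 1, the lowest, it came to -0.36, the smallest of the 12 values with 1 array left out. Normexp gave -0.40, array weights gave -0.63, and in the set of slide 2 where TNMD probe 1 was higher the difference was 0.27. That set holds control array 5, the lowest control for COL2A1 probe 1 at -5.30 and not well above background there. COL2A1 probe 1 cleared the background flag on 5 control and 4 cortisol arrays. COL2A1 probe 2, whose letters carry the glycine repeat, was above background on all 12 arrays and gave -0.28 (95% interval -0.85 to 0.28, limma adjusted p = 0.833). Its SD within groups was 0.49, against 1.65 for probe 1, and the probes' Pearson r with each other was 0.58. The cartilage proteoglycan gene ACAN was not measured above background, and SOX9 is not on the array by name.

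Both chains of type I collagen had lower means after cortisol, without passing the test. COL1A2, the alpha 2 chain of type I, ran from -0.49 to 1.14 in controls and from -1.18 to 1.29 after cortisol, so the cortisol range contained the control range. Its log2 fold change was -0.32 (95% interval -1.14 to 0.50, limma adjusted p = 0.884). COL1A1, the alpha 1 chain, is named by description only. Its probe 1 averaged 0.47 ± 1.07 (SD, n = 6) in controls and -0.36 ± 1.08 (SD, n = 6) after cortisol, which put the difference at -0.83 (95% interval -1.995 to 0.34, limma adjusted p = 0.772). COL1A1 probe 2 gave -0.34. On slide 1 alone the sign turned for COL1A2, at 0.65, and for COL1A1 probe 2, at 0.38. The spread of COL1A1 probe 1 was at the 98.6th percentile of the 9253 tested probes that were above background on every array, and that of COL1A2 at the 94.2nd.

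COL3A1, the chain of type III collagen, had nearly equal means in both groups. Its 3 member probes gave log2 fold changes of 0.02, 0.03 and 0.02, and the 95% interval of COL3A1 probe 3 ran from -0.54 to 0.59. COL3A1 probes 2 and 3 share 58 bases, and probe 1 shares none with them yet followed probe 2 with a Pearson r of 0.90. The sign of the COL3A1 difference turned when several single arrays were left out, so no direction is given for it. COL3A1 probe 4, named by description, gave -0.13.

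The remaining collagens gave differences on both sides of 0, none past the threshold. The COL6A1 label gave 0.04 and 0.07 on its probes, and both signs turned under normexp background correction. COL4A3, a type IV chain of specialised basement membranes, was dim. It cleared the background flag on 5 control and 3 cortisol arrays, and gave -0.72 (95% interval -1.58 to 0.15, limma adjusted p = 0.764), with 0 of 6 cortisol arrays above the control median. It gave -0.15 under normexp and -0.0185 with the deposited values, and its sign turned on slide 1 alone, at 0.38. Among the collagens named by description, COL5A2 gave 0.19, COL12A1 0.26, COL16A1 -0.44 (-0.22 under normexp and -0.19 with the deposited values), COL4A1 0.10 and COL4A2 -0.01. The sign of COL4A2 turned under quantile and median scaling.

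VIM and MMP2, the fibroblast filament and the gelatinase, had higher means after cortisol on all 5 probes, none past the threshold. VIM probe 2 had a lowest signal of 5.86, a median of 6.00 and a highest of 6.86 in controls. After cortisol its lowest was 5.55, its median 6.77 and its highest 7.17. Of the 6 cortisol arrays, 3 lay above every control and cortisol array 2 lay below every control. The log2 fold change was 0.48, a 1.40-fold higher mean (95% interval -0.08 to 1.05 in log2, limma adjusted p = 0.757, unadjusted p = 0.0882). It ranged from 0.38 to 0.70 when each array was left out in turn. Within the 3 sets of slide and row it was 0.46, 0.34 and 0.65.

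The MMP2 probes lie apart on 1 mRNA record and gave log2 fold changes of 0.36, 0.23 and 0.33. Under normexp background correction these came to 0.03, 0.06 and 0.12. MMP2 probe 2, the steadiest with an SD within groups of 0.23, ran from -2.40 to -1.97 in controls and from -2.36 to -1.68 after cortisol. There 4 of 6 cortisol arrays lay above every control, and its 95% interval ran from -0.10 to 0.56 (limma adjusted p = 0.773). MMP2 probe 3 had all 6 cortisol arrays above the control median, with a limma adjusted p of 0.772. On slide 1 alone, MMP2 probes 1 and 2 were lower after cortisol, at -0.37 and -0.07.

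The chains of type I collagen were high or low in the same fetuses. Over 91 pairs of the 14 genes, taking the brightest probe of each, 2 pairs passed a Benjamini-Hochberg adjusted permutation p of 0.05 by Pearson's r. COL1A1 and COL1A2 had a Pearson r of 0.88 (permutation p adjusted 0.00591) and a Spearman rho of 0.86 (permutation p adjusted 0.0209) over 12 arrays. The r was 0.87 in controls and 0.90 in cortisol arrays, 0.60 on the 4 arrays of slide 1 and 0.92 on slide 2, and 0.84 without the 2 arrays farthest from the COL1A1 median. COL4A1 and COL4A2 had a Pearson r of 0.91 (permutation p adjusted 0.00591) and a Spearman rho of 0.93 (permutation p adjusted 0.00819). Here the r was 0.89 in controls and 0.94 in cortisol arrays, 0.81 on slide 2, and 0.89 without the 2 arrays farthest from the COL4A1 median. On the 4 arrays of slide 1 it was -0.28, and all 4 of those arrays lay below every array of slide 2 for both chains. With each slide's mean removed and arrays permuted within slides, an alternative added after seeing the data, COL1A1 and COL1A2 had a Pearson r of 0.88 (permutation p adjusted 0.0482). COL4A1 and COL4A2 had an r of 0.66 (permutation p = 0.0411, adjusted 0.362), so their call is lost in this setting. In the RefSeq table of sheep genes COL4A1 and COL4A2 are neighbours on the chromosome, and so are COL5A2 and COL3A1. The COL3A1 and COL5A2 pair had a Pearson r of 0.35 (permutation p adjusted 0.654). The part of chromosomal position was not tested. This wider set of pairs was added after the data were seen, since COL1A1, COL4A1 and COL4A2 are named by description alone.

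**Figure D4:**
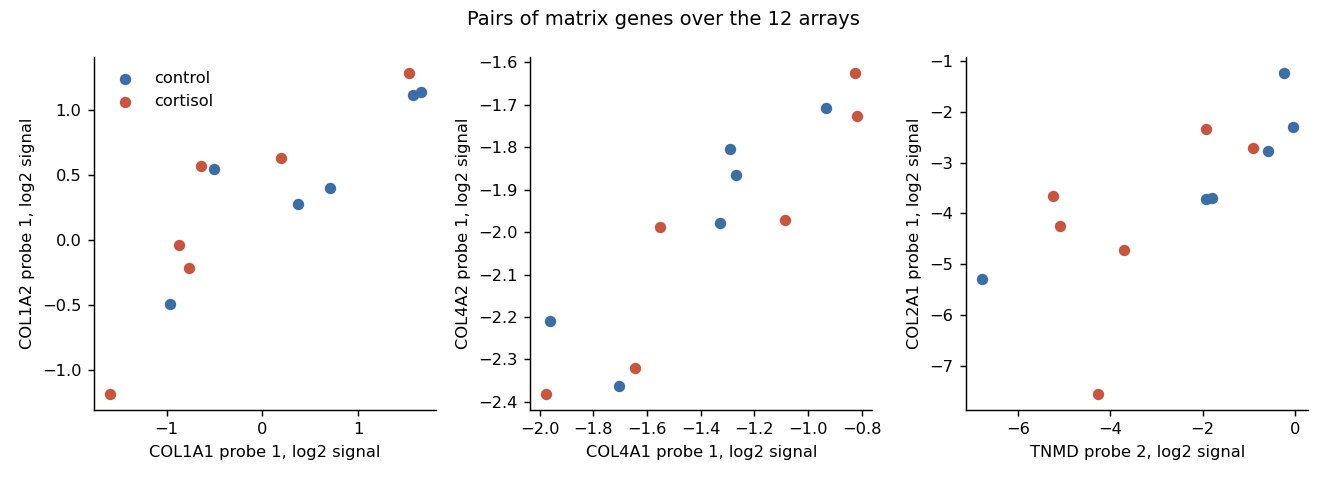
Log2 signals of 3 gene pairs on the 12 arrays, blue for control and red for cortisol. COL1A1 with COL1A2 (r of 0.88) and COL4A1 with COL4A2 (r of 0.91) lie along a line in both groups, the second pair with slide 1 at its low end, and TNMD with COL2A1 probe 1 (r of 0.72) scatters more widely.

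Among the 8 genes of the rule alone, 0 of 28 pairs passed the adjusted threshold by either measure. TNMD and COL2A1 probe 1 had a Pearson r of 0.72 (permutation p = 0.00627, adjusted 0.129) and a Spearman rho of 0.79 (permutation p = 0.00349, adjusted 0.0977). The r was 0.89 in controls and 0.52 in cortisol arrays, 0.87 on slide 1 and 0.91 on slide 2. It was 0.79 without the 2 arrays farthest from the TNMD median. That value still holds cortisol arrays 1 and 2, where COL2A1 probe 1 was not well above background. With COL2A1 probe 2 in its place the Pearson r with TNMD was 0.49. VIM and MMP2 had a Pearson r of 0.74 (permutation p = 0.0092, adjusted 0.129) and a Spearman rho of 0.72 (permutation p = 0.0103, adjusted 0.120), with an r of 0.65 without the 2 arrays farthest from the VIM median. COL1A2 and COL3A1 probe 3, of the main fibril chains of the rule, had a Pearson r of 0.66. It was 0.19 without the 2 arrays farthest from the COL1A2 median. With COL3A1 probe 4, named by description, the r was 0.66, and 0.40 without the same arrays. By Spearman's rho TNMD and COL16A1 also passed among the 91 pairs, with a rho of 0.83 (permutation p adjusted 0.0419), but not by Pearson's r of 0.68 (permutation p adjusted 0.180).

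**Figure D5:**
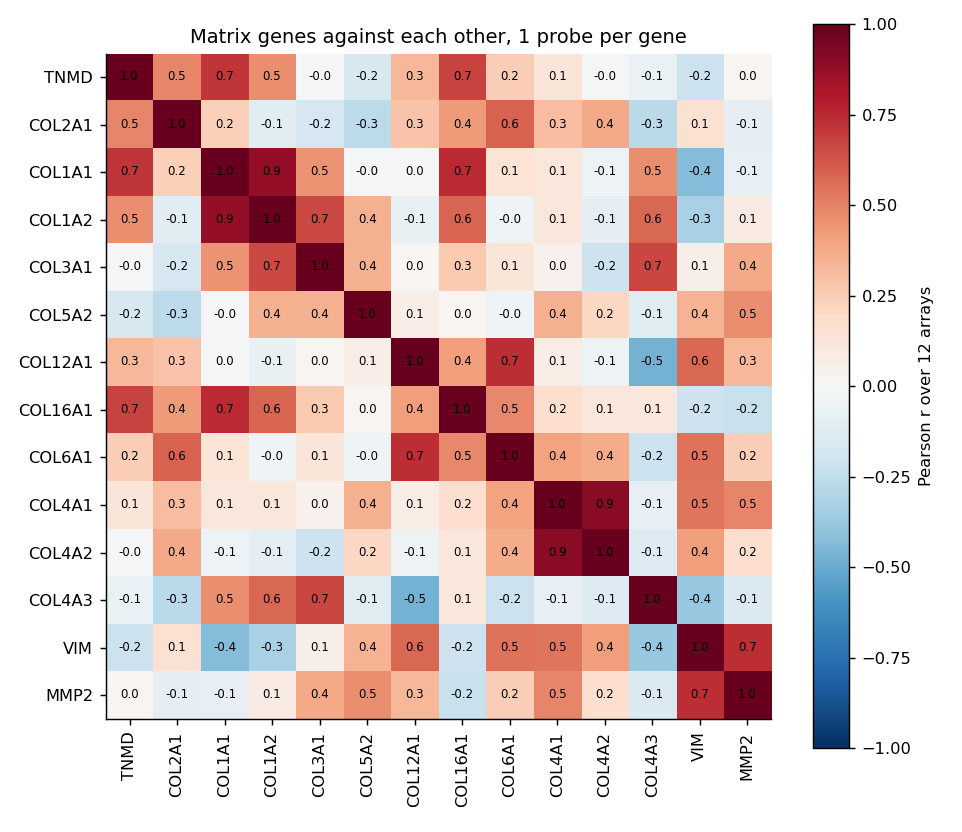
Pearson r between 14 matrix genes over the 12 arrays, with the brightest probe of each gene, red for positive and blue for negative. COL1A1 with COL1A2 and COL4A1 with COL4A2 are the darkest red cells off the diagonal, and the median over the 91 pairs is 0.14.

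Searching 886 named probes for the signals most like each gene's own over the 12 arrays returned other matrix genes for part of the set. For COL1A2 the closest was COL1A1 probe 2 (r of 0.92), then IGFBP6, a secreted binding protein of insulin-like growth factors (0.89), and GJA4, a gap junction protein of vessels (0.81). For MMP2 it was VIM (0.75), EDN1, which encodes the vasoconstrictor endothelin (0.73), and ECE1, which encodes the enzyme that activates it (0.70). VIM was closest to the secreted matrix protein gene CCN1 (0.83), the receptor gene MET (0.82) and IRAK4 (0.82). TNMD was closest to TRPC4AP (0.83), MYD88 (0.79) and COL2A1 probe 1 (0.72), and COL2A1 probe 1 to NFAT5 (0.93), CFTR (0.85) and ERBB2 (0.83). ECE1, MYD88 and CFTR were well above background on 8, 7 and 7 of 12 arrays, TNMD probe 2 on 10 and COL2A1 probe 1 on 9. The r values of these probes therefore include dim readings. All r values here are the highest of many and are given as a description.

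The other connective tissue genes on the array gave no call in limma at an adjusted p of 0.05, in either direction. Each gene was read by its probe with the highest mean signal. Of 22 listed fibroblast and matrix genes 4 were measured, 3 higher and 1 lower, or 4 higher and 0 lower with the deposited values. They were the collagen-binding proteoglycan genes DCN (0.19) and BGN (0.20), S100A4 (0.41) and FBLN1, which encodes a fibulin (-0.03), all as log2 fold changes. The other FBLN1 probe gave 0.12. Of 17 metalloproteinase and inhibitor genes beyond MMP2, 6 were measured, 5 higher and 1 lower, or 2 higher and 4 lower under normexp background correction. Those named by the rule are the inhibitors TIMP1 (0.09), TIMP3 (-0.04) and TIMP2 (0.01) and MMP14 (0.23), the membrane enzyme that activates the MMP2 proenzyme. The 2 other MMP14 probes gave 0.33 and -0.22. Of 23 genes of TGF-beta signalling and fibroblast growth factors 15 were measured, 7 higher and 8 lower (5 and 10 under normexp), among them TGFB2 (0.07), FST (0.21), SMAD4 (-0.05) and TGFBR2 (0.21). Of 23 tendon and cartilage genes 3 were measured, all lower: TNMD, COL2A1 and the transcription factor gene EGR1 (-0.21). The basement membrane list was measured through the integrin gene ITGB1 (0.05), and the intermediate filament list through GFAP (-0.29). The list of collagen folding and cross-linking enzymes had no member on the array by name.

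Markers of other cell types differed between fetuses as well. As a mean log2 signal, the muscle markers lay between 2.83 and 3.08 on control arrays and between 1.20 and 2.93 on cortisol arrays. Among them the myoglobin gene MB had a log2 fold change of -1.46 (limma unadjusted p = 0.00883, adjusted 0.693). The 3 measured leukocyte markers of 6 lay between -3.04 and -2.59 in controls and between -2.78 and -1.84 after cortisol. All 3 were higher by log2 fold change. FCER1G gave 0.59 (limma unadjusted p = 0.00425, adjusted 0.693), ITGB2 0.62 (limma unadjusted p = 0.0184, adjusted 0.693) and CD14 0.27. The 5 measured endothelial markers of 7 lay between -1.48 and -0.97 and between -1.81 and -0.79. The 3 measured liver markers of 5 lay between -5.79 and 3.71 in controls and between -5.45 and -1.77 after cortisol, with control array 5 the lowest and control array 4 the highest. All 3 were lower by log2 fold change. AHSG gave -3.62 (limma adjusted p = 0.757), ALB -2.72 (limma adjusted p = 0.729) and SERPINA1 -2.04 (limma adjusted p = 0.772). They were well above background on 9, 8 and 8 of 12 arrays. The 4 measured adipocyte markers of 5 lay between -2.89 and -2.14 in controls and between -2.50 and -1.55 after cortisol. By log2 fold change 2 of them were higher and 2 lower. The fatty acid carrier gene FABP4 gave 1.65 (limma unadjusted p = 0.0288, adjusted 0.693), PPARG 0.38, LEP -0.11 and PLIN1 -0.13. FABP4 was well above background on 6 of 12 arrays, the fewest that the filter allows. The 2 measured erythroid markers of 4 lay between -2.14 and 1.03 in controls and between -3.11 and 1.44 after cortisol. The part of these markers in the VIM, MMP2 and TNMD values was not tested.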

How the data were processed

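On 1-colour Cy3 arrays the authors measured spot intensity. The submitters' processing notes name Agilent Feature Extraction 10.1.1.1. The flags used, other values of 0 or 1 per spot, are as given per the file headers. The deposited table holds log2 values, used as an alternative. The processed intensity, background-subtracted per the file headers, was put on the log2 scale after averaging a probe's spots without outlier flags, and each array's 75th percentile was subtracted. Of 15008 probes, 10734 were well above background on at least 6 arrays and were tested with limma 3.58.1 in R 4.3.3 (lmFit, eBayes, two-sided, 6 against 6), with Benjamini-Hochberg adjustment over all of them. The number of arrays limits the precision. Each fetus has 1 array. Correlations used 100000 permutations. Python 3.11.15 was used. Gene names came from the array and a RefSeq table, and 13629 probes stayed unnamed. The files name no genome build, so no coordinates are given. The members and lists were chosen with earlier results of these data known. Every member probe is named, with up to 4 genes of each list by mean signal and 3 most alike probes of another gene for VIM, MMP2, TNMD, COL2A1 and COL1A2. On simulated data of 10719 probes, limma called 48 of 50 probes raised by 2 log2 units, 27 of 50 raised by 1, 43 of 50 lowered by 2 and 35 of 50 lowered by 1, with 5 false calls. The simulated noise was normal and independent between probes, unlike the real arrays. These counts check the code and do not give the power of the real comparison.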

Additional observations from a re-analysis of the deposited data

Results flagged for a closer look

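TNMD on control array 5 stood far below the other 5 control arrays. The signal of TNMD probe 1 there was -6.42, against -2.20 to -0.72 on the others, and that of TNMD probe 2 was -6.78, against -1.93 to -0.04. The gap to the next control took up 0.739 and 0.720 of the group's range, above Dixon's 95% critical value for 6 samples. Of 48 groups of arrays examined in this way, 2 went past that limit, both of them TNMD on the same array, and chance flags about 1 in 20. Neither reading was well above background.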

How the results depend on the processing

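The count of called probes stayed at 0 for the members in all 27 alternatives. Over all tested probes it stayed at 0 except on slide 1 alone, where it was 1. With replicate numbers as a block it was 0 as well, and 10 member probes had a higher mean, with a median of 0.03. Same-numbered arrays did not all deviate together (correlations from -0.11 to 0.25), so the numbers were not taken as pairs. The count of member probes with a higher mean was 6 on slide 2 alone, 5 in the second set of slide and row, and 5 to 10 with each array left out. The median log2 fold change was 0.31 on slide 1 and -0.19 on slide 2. Signs turned as follows, in log2 fold change. On slide 1: COL1A2 0.65, COL4A3 0.38, MMP2 probes 1 and 2 -0.37 and -0.066, COL1A1 probe 2 0.38, COL3A1 probe 4 0.53. On slide 2: COL3A1 probes 1 to 3 -0.37, -0.25 and -0.19, COL6A1 probe 1 -0.058, COL2A1 probe 2 0.0199, COL4A2 0.0116. Normexp gave COL6A1 probes -0.016 and -0.077, and the deposited values gave COL6A1 probe 2 -0.0106. COL4A2 was 0.0025 under quantile scaling, 0.0070 under median scaling and 0.088 with array weights. With each array left out, COL3A1 probes 1 to 3 ran from -0.13 to 0.20, -0.10 to 0.21 and -0.11 to 0.21, COL4A1 from -0.0117 to 0.23, COL4A2 from -0.0895 to 0.0619, and the COL6A1 probes from -0.0861 to 0.18 and -0.0229 to 0.21. The cause was not tested. The other 6 member probes kept their sign in all alternatives with a test. The third set of slide and row has no test and holds control array 5. There TNMD probe 1 was 0.10 and COL2A1 probe 1 was 0.27. Adding the collagens named by description, chosen after seeing the data, gave 13 of 24 higher with a median of 0.02, and the named column alone gave 9 of 11 with 0.07. Dim TNMD, COL2A1 and COL4A3 readings limit what these arrays show.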
